A study of Homo sapiens with 6 samples.

Results

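TRAC, CD3E, CD79A, CD79B and PAX5 are genes of the T and B lymphocyte programmes, and they were examined here in THP-1 cells, a human line grown from an acute monocytic leukaemia. They are 5 of the 20263 genes of the deposited expression table, taken by gene name. The genes were picked with the difference between the groups already known, so their own differences are given as a description with no test. Poly(A)-selected RNA was sequenced from 3 samples labelled shGOT1, whose genotype label is GOT1 knockdown, and from 3 samples labelled shNC, the control hairpin. GOT1 is the cytosolic aspartate aminotransferase. The label names THP-1 tumor cells for all 6 samples and gives no drug, time or dose. It names a single code for the shGOT1 samples, so different hairpins against GOT1 cannot be compared, and it calls the replicates biological without saying whether they were separate cultures. The p-values below therefore measure the spread between these samples, which may be technical.

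A T cell recognises antigen with a receptor whose variable chains, made from the TRA and TRB loci or from the TRG and TRD loci, carry no signalling motif of their own. The chains of CD3 (CD3D, CD3E, CD3G) and CD247 sit beside them and pass the signal into the cell. A B cell does the same with a membrane immunoglobulin, whose signal is passed on by the pair CD79A and CD79B. Each signalling chain holds an immunoreceptor tyrosine-based activation motif (ITAM), in which a pair of tyrosines is phosphorylated and then bound by a kinase of the SYK family. PAX5 is the transcription factor that commits lymphoid progenitors to the B lineage. In the mouse it activates genes such as Cd79a and represses genes of other lineages. TRAC encodes the constant region of the T cell receptor alpha chain, which in a mature T cell is joined by splicing to a rearranged variable segment.

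The reference stretches that tie these genes to their roles come from the GRCh38 genome with GENCODE release 29 transcripts. The motif is shown because it is the feature that CD3E, CD79A and CD79B share, in different receptors. Capitals mark the codons of the 2 tyrosines, and each stretch of 45 bases is written on the coding strand.
CD3E (chr11:118314489-118315524, plus strand, spliced from exons 8 and 9 of 9): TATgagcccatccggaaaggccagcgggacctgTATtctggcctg
CD79A (chr19:41880733-41880905, plus strand, exons 4 and 5 of 5): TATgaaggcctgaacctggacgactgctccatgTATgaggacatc
CD79B (chr17:63929286-63929439, minus strand, exons 5 and 6 of 6): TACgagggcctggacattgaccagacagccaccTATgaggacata
In all 3 stretches 10 codons lie between the tyrosine codons, and an intron divides the motif. CD79A and CD79B share 31 of the 45 bases (68.9%), CD3E and CD79A 20 (44.4%), and CD3E and CD79B 21 (46.7%). TRAC holds no such motif.

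Total counts per library ran from 26226977 to 39144890. A count of 0, which allows up to 3 counts, therefore limits a gene to between 0.0766 and 0.114 counts per 1000000 of the unadjusted library total. That bound covers counting error only. GOT1, the targeted gene, stood at 3.27, 2.87 and 3.33 TPM, the deposited abundance scaled to length and to a fixed total of 1000000 per library, in the shGOT1 libraries and at 15.3, 16.7 and 16.3 TPM in the shNC libraries. The edgeR fit put it at -2.45 on the log2 scale (SE 0.0907, adjusted p = 1.26e-05, n = 3 per group), in the direction of the labels. Of 13735 genes tested, 6128 (44.6%) passed an edgeR adjusted p of 0.05, with 3002 (21.9%) higher and 3126 (22.8%) lower in shGOT1. By the deposited TPM with limma the calls split as 66.4% higher, against 49.0% in the main fit, and the median of all genes shifted by 0.11 on the log2 scale with a pseudocount of 0.1. Every shGOT1 library lay above every shNC library for 36.4% of the genes tested, and 4.67% had a fitted rise of at least 2-fold. Any count below is to be read against these shares.

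Of the 5 lymphoid genes, 4 were detected in all 6 libraries and the fifth, CD3E, in none. All 4 stood higher in every shGOT1 library than in any shNC library, as 36.4% of all genes tested did. Their differences from shNC ran from 0.70 for CD79A to 2.27 for TRAC on the log2 scale. These are the values by which the genes were chosen.

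**Figure D1:**
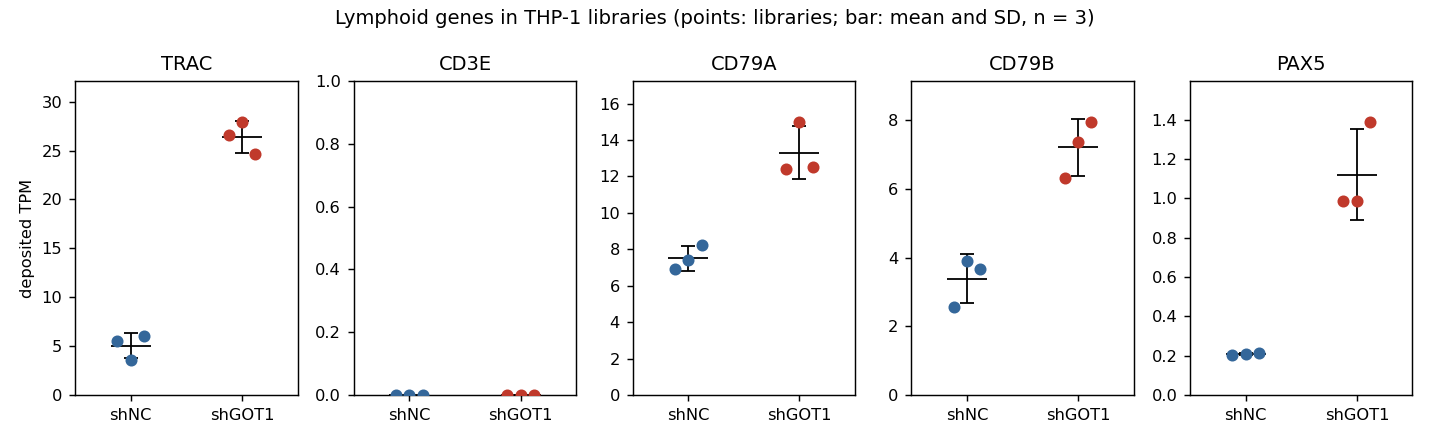
Deposited TPM of the 5 lymphoid genes, one panel per gene with its own linear axis from 0. Points are libraries, and the bar and whiskers are the mean and SD of the 3 libraries of a group. CD3E lies at 0 in all 6 libraries, and for the other 4 genes the groups do not overlap.

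TRAC (ENSG00000277734, chr14:22547506-22552154, plus strand) stood at 26.6, 27.9 and 24.6 TPM in the shGOT1 libraries and at 5.56, 3.55 and 5.99 TPM in the shNC libraries. The shGOT1 libraries were close to each other and lay far above the control libraries, of which replicate 2 was the lowest. The group means were 26.4 ± 1.66 and 5.03 ± 1.30 TPM (SD, n = 3 each). The counts behind them were 371, 459 and 502 against 79, 55 and 93. Counts per 1000000 (CPM) are given here on library totals adjusted by TMM normalization and are not scaled to length. On that scale the means were 13.5 ± 0.927 and 2.79 ± 0.706 (SD, n = 3 each). The fitted difference was 2.27 on the log2 scale (SE 0.196), or 4.84-fold. A larger fitted rise was found for 69 of the tested genes. In the order of TPM over all genes of the table, TRAC moved from between places 9707 and 10615 in the shNC libraries to between places 5260 and 5723 in the shGOT1 libraries.

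CD3E (ENSG00000198851, chr11:118304545-118316175, plus strand) had a count of 0 in each of the 6 libraries and entered no test. The other signalling chains of the T cell receptor were at or near 0 as well. CD3G had no count in any library, and CD3D had 2 counts in all, both in shNC replicate 1. CD247, the zeta chain, had 14 counts over the shGOT1 libraries and 11 over the shNC libraries, with 1 library of each group at 0. The beta chain constant genes TRBC1 and TRBC2 had no count in any library. In every library, then, TRAC had counts while the beta chain constant genes, CD3E and CD3G had none, at these depths.

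CD79A (ENSG00000105369, chr19:41877120-41881372, plus strand) stood at 12.4, 15.0 and 12.5 TPM in the shGOT1 libraries and at 6.89, 7.40 and 8.21 TPM in the shNC libraries. The groups did not overlap, and shGOT1 replicate 2 was the highest library. The means were 13.3 ± 1.46 and 7.50 ± 0.666 TPM (SD, n = 3 each), from counts of 223, 312 and 317 against 125, 146 and 164. The fitted difference was 0.70 on the log2 scale (SE 0.122), or 1.62-fold, the smallest of the 4 detected genes, and 1146 tested genes had a larger rise.

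CD79B (ENSG00000007312, chr17:63928740-63932354, minus strand), the other chain of the pair, stood at 6.30, 7.38 and 7.95 TPM in the shGOT1 libraries and at 2.57, 3.90 and 3.68 TPM in the shNC libraries. Here shNC replicate 1 was the lowest library, and the highest control library still lay below the lowest shGOT1 library. The means were 7.21 ± 0.836 and 3.38 ± 0.715 TPM (SD, n = 3 each), from counts of 89, 140 and 181 against 48, 65 and 54. The fitted difference was 0.99 on the log2 scale (SE 0.179), or 1.99-fold, and 654 tested genes had a larger rise.

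The balance between the chains of the pair did not separate the groups. CD79A stood above CD79B in each library, with a ratio of their TPM of 1.97, 2.03 and 1.58 in the shGOT1 libraries and of 2.68, 1.90 and 2.23 in the shNC libraries. These ranges overlap. The balance of TRAC to CD79A did separate them, with TPM ratios of 2.14, 1.86 and 1.96 in shGOT1 and of 0.807, 0.480 and 0.730 in shNC. In the shNC libraries CD79A therefore led, TRAC and CD79B overlapped (3.55 to 5.99 and 2.57 to 3.90 TPM), and PAX5 was the lowest. In the shGOT1 libraries the order of TPM was TRAC, CD79A, CD79B and PAX5, with no overlap between neighbours.

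PAX5 (ENSG00000196092, chr9:36833275-37034185, minus strand) stood at 0.986, 0.985 and 1.39 TPM in the shGOT1 libraries and at 0.203, 0.210 and 0.213 TPM in the shNC libraries. It was the least abundant of the 4 detected genes per length in every library. The shNC libraries were almost equal, and shGOT1 replicate 3 stood above the other two. The means were 1.12 ± 0.232 and 0.209 ± 0.00539 TPM (SD, n = 3 each), a ratio of 5.37.

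The counts of PAX5 tell a different order among the shGOT1 libraries. They were 122, 115 and 111 against 26, 29 and 30, which gives 4.46, 3.60 and 2.77 CPM in shGOT1 and 1.01, 1.04 and 1.06 CPM in shNC. By CPM the third shGOT1 library was the lowest of its group, while by TPM it was the highest. The fitted difference, which rests on counts, was 1.79 on the log2 scale (SE 0.211), or 3.45-fold, and 160 tested genes had a larger rise. On the log2 scale the ratio of mean TPM was 2.42.

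The count divided by the TPM gives the transcript length that the deposited values imply, once it is put on the scale of 573 genes with a single GENCODE transcript. For PAX5 that length was 8856, 8755 and 8863 bases in the shNC libraries, near its longest annotated transcript of 8615 bases. In the shGOT1 libraries it was 8630, 6915 and 3816 bases. PAX5 has 16 annotated transcripts, from 184 to 8615 bases, so the TPM difference of PAX5 holds a difference in assigned length as well as one in counts. TRAC, with 1 annotated transcript of 976 bases, had implied lengths of 973 to 984 bases in all libraries. CD79A kept to between 1206 and 1256 bases. CD79B varied within both groups, at 985, 1124 and 1086 bases in shGOT1 and 1290, 1058 and 923 bases in shNC, and those ranges overlap.

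**Figure D2:**
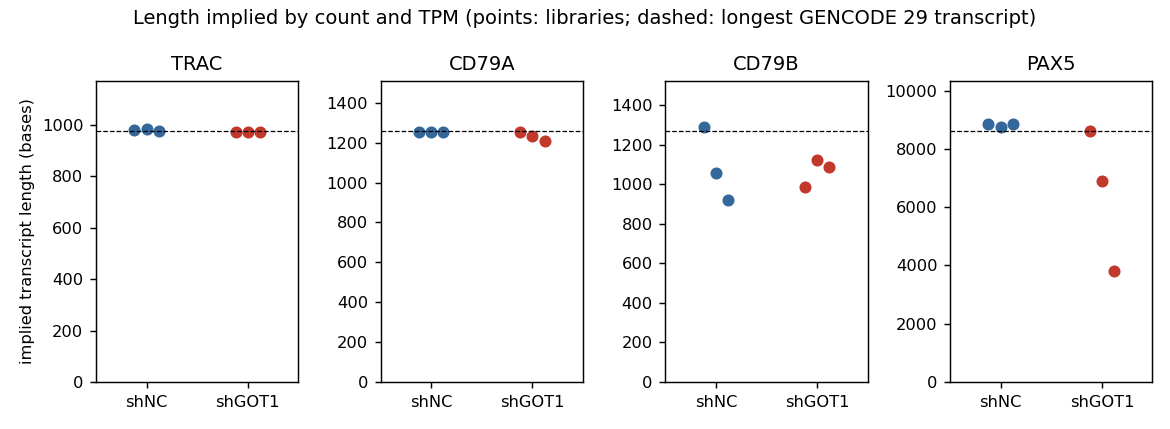
Transcript length in bases implied by the deposited count and TPM, one panel per detected lymphoid gene, with its own linear axis from 0. Points are libraries, and the dashed line is the longest GENCODE release 29 transcript. PAX5 keeps to 8755 to 8863 bases in the shNC libraries and spreads from 8630 down to 3816 bases in the shGOT1 libraries.

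Markers of lymphoid and myeloid cells were read from the same libraries. All 13 monocyte and myeloid markers were tested and detected, with summed levels of 7767 to 7942 TPM in the shGOT1 libraries and 8039 to 8308 TPM in the shNC libraries, and 4 rose and 7 fell. The 12 T cell markers other than the 5 genes summed to 0 to 0.324 TPM in shGOT1 and to 0.385 to 0.918 TPM in shNC. CD3G, TRBC1, TRBC2, CD2 and LCK were at 0 in all libraries and no T cell marker passed the filter on low counts. The 10 B cell markers summed to 7.98 to 10.4 TPM in shGOT1 and to 6.06 to 6.37 TPM in shNC, with MS4A1, IGHD and VPREB1 at 0 throughout, and 2 of the 4 tested rose. The 7 natural killer markers summed to 123 to 138 TPM in shGOT1 and to 118 to 121 TPM in shNC, with KLRD1 and NCR1 at 0 throughout, and 1 of the 3 tested rose. The part of B or natural killer cell RNA in the differences was not tested. In bulk RNA a larger share of cells with a transcript and more of it per cell cannot be told apart.

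Around TRAC, the rearranged parts of the receptor were almost without counts. Of 45 TRAV variable genes in the table, 44 had no count in any library, and the highest count of any of them in a library was 3. Of 56 TRAJ joining segments, 51 were at 0 throughout, with at most 1 count in a library. TRAC itself had 1332 counts over the shGOT1 libraries and 227 over the shNC libraries. Of 3 TRDV genes 2 were at 0 throughout.

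TRDC, the constant gene of the T cell receptor delta chain, lies in the same locus, 81.7 kb from TRAC. It had 11, 18 and 25 counts in the shGOT1 libraries and 0 in each shNC library, and a mean of 1.37 ± 0.322 TPM (SD, n = 3) in shGOT1. That is at least 4.80-fold higher than a floor of 3 counts per shNC library. TRDC passed the filter on low counts only through its shGOT1 libraries. Its edgeR call, counted below in the T cell list and around TRAC, is therefore a description.

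The gamma chain constant genes TRGC1 and TRGC2 are near-identical copies whose reads may be split between them. By TPM, TRGC2 stood above TRAC in every library, and TRGC1 stood above TRAC in the shNC libraries only. TRGC1 rose from 7.85 ± 0.202 to 11.4 ± 0.540 TPM (SD, n = 3 each; 0.43 on the log2 scale, SE 0.0650, edgeR adjusted p = 0.00268). TRGC2 rose from 29.5 to 41.1 TPM on average (0.37 on the log2 scale, edgeR adjusted p = 0.00781). All 9 TRGV variable genes had counts, with sums of 384, 433 and 555 in shGOT1 and of 292, 328 and 293 in shNC, not scaled for depth. The 5 tested did not move together. TRGV9 fell from 2.09 to 1.12 TPM (-0.997 on the log2 scale, edgeR adjusted p = 0.00638), TRGV3 rose from 6.92 to 11.99 TPM (0.68, adjusted p = 0.00918) and TRGV5 did not pass (0.38, adjusted p = 0.0774). TRGV8 and TRGV4 rose (0.94 and 0.48, edgeR adjusted p = 0.0317 and 0.0220). Each of these calls was lost without shGOT1 replicate 2 or 3 or shNC replicate 3, and also without shNC replicate 1 for TRGV8 and shNC replicate 2 for TRGV4. Over the alternatives the adjusted p ran from 0.0161 to 0.102 for TRGV8 and from 0.00396 to 0.0767 for TRGV4. For beta chain variable genes, 34 of 39 TRBV genes were at 0 throughout. TRBV7-3, the only TRBV gene tested, rose from 2.73 to 6.60 TPM on average (1.12 on the log2 scale, edgeR adjusted p = 0.0114).

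**Figure D3:**
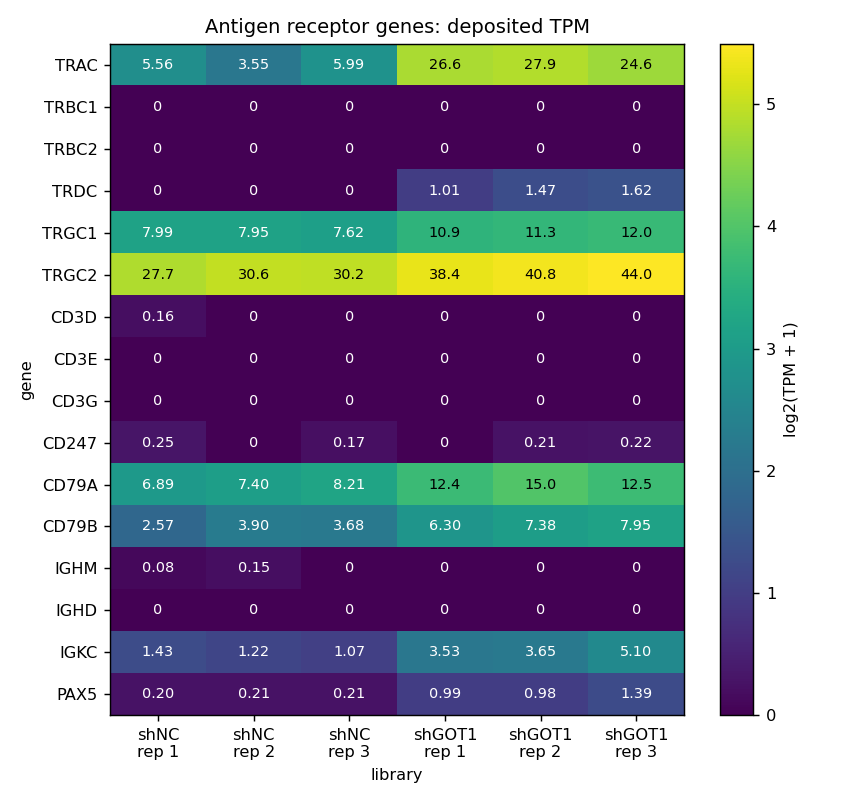
Deposited TPM of antigen receptor genes (rows) in the 6 libraries (columns), printed in each cell and coloured by log2(TPM + 1). TRAC, TRDC, TRGC1, TRGC2, CD79A, CD79B, IGKC and PAX5 are higher in each shGOT1 library than in any shNC library, while TRBC1, TRBC2, CD3E, CD3G and IGHD are at 0 throughout.

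RNA of the heavy chain of the immunoglobulin that CD79A and CD79B serve in B cells was at or near 0. IGHM had 6 counts over the shNC libraries and 0 over the shGOT1 libraries, and IGHD had none. All 53 IGHV and all 6 IGHJ genes were at 0 in every library. The kappa constant gene IGKC was at 3.53, 3.65 and 5.10 TPM in the shGOT1 libraries and at 1.43, 1.22 and 1.07 TPM in the shNC libraries, a rise of 1.63 on the log2 scale (SE 0.258, edgeR adjusted p = 0.00331). Of its variable genes, 44 of 46 IGKV genes had no count in any library.

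Myeloid cells use ITAM adaptors of their own. FCER1G, the signalling chain of Fc receptors, fell from 906 to 782 TPM on average (-0.31 on the log2 scale, edgeR adjusted p = 0.000318). TYROBP, the adaptor of several activating receptors of myeloid and natural killer cells, fell from 164 to 115 TPM (-0.62 on the log2 scale, edgeR adjusted p = 0.00189). SYK and LYN, kinases that act on ITAMs, fell by 0.24 and by 0.47 on the log2 scale (edgeR adjusted p = 0.000166 and 0.000103). The call for LYN was lost with limma on log2(TPM + 1) and log2(TPM + 0.1), at adjusted p of 0.0538 and 0.0541. These 4 genes were chosen after their values were seen, so the p-values are not a test of ITAM signalling. The listed kinases FYN and BTK did not pass (-0.22 and -0.09 on the log2 scale, edgeR adjusted p = 0.0620 and 0.366).

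Lists of lymphoid genes without the 5 were set beside them. Of 125 entries in 5 lists, 26 had no count in any library, 71 were tested, 18 rose, 17 fell and 36 did not pass. That is 49.3% called, near the 44.6% of all genes, and the median log2 fold change was 0.02 against 0.00 for all genes tested.

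In the list of T cell receptor and signalling genes, 10 of 28 had no count anywhere and 10 were tested, of which 5 rose and 1 fell, with a median of 0.40, which is the same with TRDC taken at its bound. LCP2, an adaptor downstream of the T cell receptor that myeloid cells also use, rose from 48.2 ± 3.04 to 86.7 ± 6.08 TPM (SD, n = 3 each; 0.81 on the log2 scale, edgeR adjusted p = 1.17e-05). SIT1, an adaptor that dampens T cell receptor signalling, rose from 0.492 to 1.40 TPM (1.39 on the log2 scale, edgeR adjusted p = 0.0191). The SIT1 call was lost with the replicate block (adjusted p = 0.0712) and without shGOT1 replicate 2 or 3 or shNC replicate 2 or 3 (0.0605, 0.0679, 0.0642 and 0.0639), in a range of 0.0118 to 0.0712. CD4, the only one of the list that fell, moved from 231 to 192 TPM (-0.37 on the log2 scale, edgeR adjusted p = 9.72e-05).

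Of 28 entries in the B cell list 18 were tested, 2 rose, with IGKC among them, 8 fell and 8 did not pass, with a median of -0.27. The share called was 55.6%, beside 44.6% of all genes. FCRLA, an Fc receptor-like protein of B cells, had 4, 0 and 12 counts in shGOT1 and 30, 53 and 45 in shNC, or -3.28 on the log2 scale (SE 0.680). It passed the filter on low counts only through its shNC libraries, so this value and its place among the 8 are a description. Without shGOT1 replicate 3 the log2 value of FCRLA was -4.43. CD72, a B cell inhibitory receptor, fell from 11.2 to 5.97 TPM (-0.85, edgeR adjusted p = 0.00376), and FCER2, the low-affinity IgE receptor, from 45.9 to 33.6 TPM (-0.56, edgeR adjusted p = 0.000566), both on the log2 scale. CD79A and CD79B, at 0.70 and 0.99, thus stood beside 2 B cell genes that rose and 8 that fell. Of the 8, LYN and PLCG2 lost the call with limma on both TPM scales, and TNFRSF13C lost it with limma on log2(TPM + 0.1), with the replicate block and without shGOT1 replicate 1 (adjusted p = 0.0569, 0.0556 and 0.0504, in a range of 0.0167 to 0.0569).

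**Figure D4:**
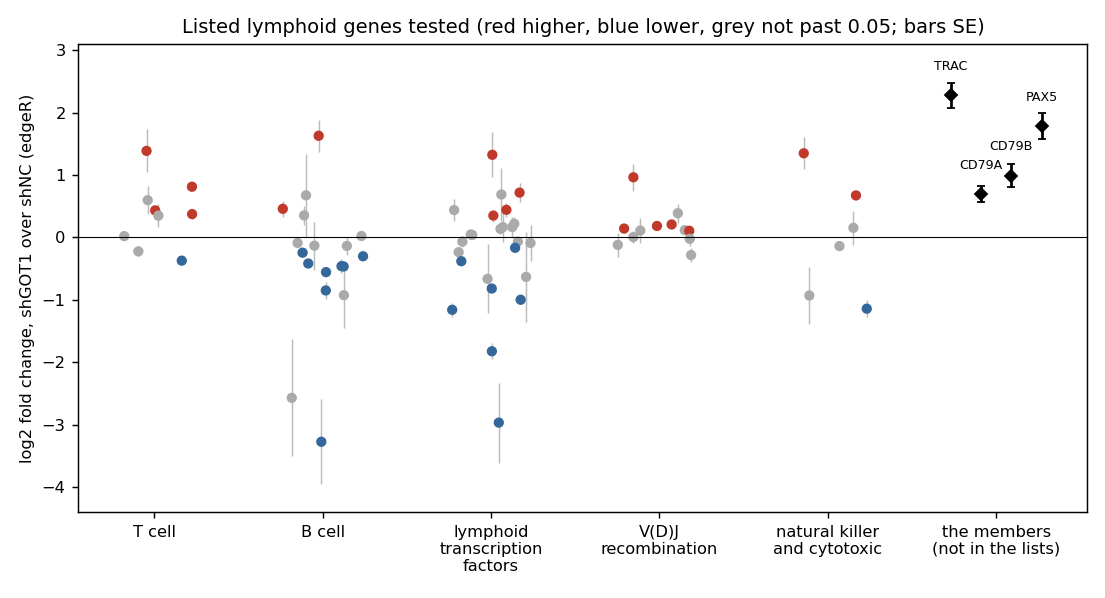
Fitted log2 fold change, shGOT1 over shNC, of each tested gene of 5 lymphoid lists (dots, with SE) and of the 4 detected lymphoid genes (black diamonds, with SE). Red and blue dots passed an edgeR adjusted p of 0.05 as higher and lower, grey dots did not, and TRDC is left out because its shNC libraries are all at 0. In the B cell list 2 dots are red and 8 are blue.

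Among 36 lymphoid transcription factors, 25 were tested, 4 rose, 7 fell and 14 did not pass, with a median of -0.07 and 44.0% called. EBF1, which acts upstream of PAX5 and with it in B cell progenitors, had 11 counts over the shGOT1 libraries and 13 over the shNC libraries and was not tested. PRDM1, the plasma cell factor that PAX5 represses in the mouse, was at 1.43, 1.28 and 1.06 TPM in shGOT1 and at 3.47, 3.70 and 3.23 TPM in shNC, or -1.83 on the log2 scale (SE 0.125, edgeR adjusted p = 0.00012). TCF7, a factor of early T cells, rose from 1.01 to 2.61 TPM (1.32 on the log2 scale, edgeR adjusted p = 0.0263). Its call was lost without shGOT1 replicate 2 or 3 or shNC replicate 1 or 2 (adjusted p = 0.0794, 0.0805, 0.0793 and 0.0805), in a range of 0.00545 to 0.0805. ETS1 rose by 0.35 and lost the call without shGOT1 replicate 1 or 2 or shNC replicate 2 (edgeR adjusted p = 0.0798, 0.0814 and 0.0525). MYB rose by 0.44 and lost it without shGOT1 replicate 1 or 3 or shNC replicate 1 or 2 (edgeR adjusted p = 0.0520, 0.0573, 0.0525 and 0.0558). SPI1, called lower at -0.17, lost it with limma on both TPM scales (adjusted p = 0.108 and 0.110). FOXO1 fell from 1.23 to 0.588 TPM (-1.16), and POU2F2, an octamer factor of B cells, from 29.4 to 16.1 TPM (-0.999), both on the log2 scale (edgeR adjusted p = 0.000463 and 0.000168).

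Of genes that Pax5 activates in the mouse, 5 of 12 were tested besides CD79A, 2 rose, with SPIB among them, 1 fell (CD72) and 2 did not pass, with a median of -0.13. SPIB, an ETS factor, rose from 1.37 ± 0.175 to 2.28 ± 0.0638 TPM (SD, n = 3 each; 0.72 on the log2 scale, edgeR adjusted p = 0.0106). Of genes that Pax5 represses in the mouse, 7 of 9 were tested, 4 fell (PRDM1, CSF1R, FLT3 and CCL3), 0 rose and 3 did not pass, with a median of -0.39. The share called was 57.1%, in a list chosen with earlier results of these data known. Over all genes 44.6% were called and 22.8% were lower. By DESeq2 0 rose and 4 fell as well, and 0 stood higher at an unadjusted edgeR p under 0.05. CSF1R, the receptor of the macrophage growth factor, fell from 158 ± 1.31 to 93.1 ± 2.53 TPM (SD, n = 3 each; -0.85 on the log2 scale, edgeR adjusted p = 6.59e-06). CSF1R and FLT3 are also myeloid genes. Of 25 genes in a monocyte and myeloid list 8 rose and 13 fell, with a median of -0.21 and 84.0% called. LYZ, lysozyme, fell from 552 to 72.2 TPM on average (-3.05 on the log2 scale, edgeR adjusted p = 9.98e-06). The part of these myeloid changes in the values of the repressed genes was not tested.

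V(D)J recombination joins the variable segments whose counts were near 0 beside TRAC, IGKC and IGHM. Of 14 genes of that reaction 12 were tested, 5 rose, 0 fell and 7 did not pass, with a median of 0.11. The share called was 41.7%, near the 44.6% of all genes. By DESeq2 6 rose and 0 fell, and 1 stood lower at an unadjusted edgeR p under 0.05. HMGB1, PAXX, XRCC5 and XRCC6, which serve DNA binding and end joining in all cells, rose by 0.21, 0.18, 0.14 and 0.11 on the log2 scale (edgeR adjusted p = 0.0107, 0.0106, 0.00289 and 0.0122). RAG1, the recombinase subunit, was at 0.430, 0.518 and 0.491 TPM in shGOT1 and at 0.214, 0.182 and 0.278 TPM in shNC, a rise of 0.96 on the log2 scale (edgeR adjusted p = 0.0127). It was named after its values were seen. In the natural killer list 6 of 19 genes were tested, with 50.0% called. Of these 2 rose (NCR3 and NCAM1, by 1.35 and 0.67 on the log2 scale) and 1 fell (FCGR3A, -1.14), at edgeR adjusted p of 0.00679, 0.000867 and 0.000989.

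No gene of the table overlaps any of the 5 in position, and their neighbours within 500 kb gave 84 tested genes, of which 19 rose, 18 fell and 47 did not pass. That is 44.0% called, beside 44.6% of all genes, with a median of 0.01. By limma on log2(TPM + 1) the split was 25 higher and 9 lower. Of the 5, TRAC had the highest share of rises around it, with 8 higher (TRDC among them), 1 lower and 7 not past of 16 tested. The median around TRAC was 0.34, and 56.2% were called. Its nearest tested neighbour, DAD1, 12.8 kb downstream, rose from 205 ± 10.9 to 298 ± 20.0 TPM (SD, n = 3 each; 0.47 on the log2 scale, edgeR adjusted p = 0.00114).

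Beside CD79A, RPS19 at 4.2 kb fell from 572 to 513 TPM (-0.27 on the log2 scale, edgeR adjusted p = 0.000223) and ARHGEF1 at 1.8 kb did not pass (306 against 304 TPM, -0.11, adjusted p = 0.0639). Of 28 tested genes around CD79A 5 rose and 5 fell. Beside CD79B, SCN4A at 6.2 kb stood at 0.48 (adjusted p = 0.0505) and SMARCD2 at 85.7 kb at -0.02 (adjusted p = 0.820), both on the log2 scale by edgeR, and of 19 tested genes 3 rose and 4 fell. Beside PAX5, MELK at 155.6 kb stood at 0.10 (adjusted p = 0.133) and ZCCHC7 at 86.4 kb at -0.11 (adjusted p = 0.140), and of 7 tested genes 3 rose and 1 fell.

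Of 25 genes within 500 kb of CD3E, which had no counts, 14 were tested. Of those 7 fell, 0 rose and 7 did not pass by edgeR, or 50.0% called beside 44.6% of all genes, with a median of -0.14. By DESeq2 1 was higher, and 1 was higher at an unadjusted edgeR p under 0.05. The edgeR falls ran from -0.13 for ATP5L to -3.31 for JAML on the log2 scale. DDX6 was called lower at -0.15, while its mean TPM was higher in shGOT1 (51.6 against 48.3). CD3D at 22.8 kb, CD3G at 28.2 kb and MPZL2 at 40.0 kb from CD3E were not tested. The nearest tested gene, UBE4A at 43.4 kb, fell by 0.19 on the log2 scale (edgeR adjusted p = 0.00781). MPZL3, at 52.2 kb on the other side, stood at 0.22 (edgeR adjusted p = 0.343). The call for UBE4A was lost with limma on log2(TPM + 1) and log2(TPM + 0.1), at adjusted p of 0.253 and 0.242.

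**Figure D5:**
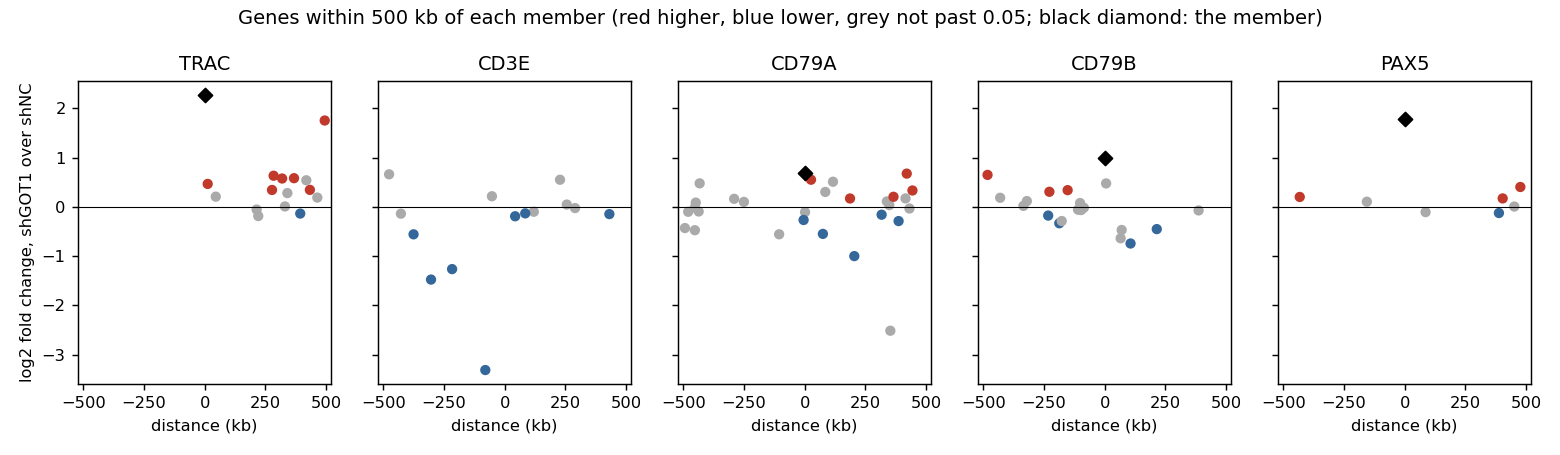
Fitted log2 fold change, shGOT1 over shNC, of each tested gene within 500 kb of a lymphoid gene against its distance from that gene in kb, one panel per gene. Red and blue dots passed an edgeR adjusted p of 0.05 as higher and lower, grey dots did not, black diamonds are the lymphoid genes themselves, and TRDC is left out. Around TRAC 8 of 16 tested genes are higher with TRDC counted, and around CD3E 7 of 14 are lower and none is higher.

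The genes most like each of the 4 over the 6 libraries were found by the root mean square distance of log2 CPM from the mean of shNC, over tested genes that averaged 1 TPM or more. Nearest to TRAC were ZBTB16 at 0.127, COL4A5 at 0.198 and KLHL13 at 0.214 log2 units. ZBTB16, a zinc finger factor of innate-like T cells and myeloid progenitors, had means of 3.75 TPM in shGOT1 and 0.598 TPM in shNC. Nearest to PAX5 were BOK at 0.133, FBXO16 at 0.174 and SDC1, the syndecan found on plasma cells, at 0.180. Nearest to CD79A were ERGIC2 at 0.0645, TBC1D8B at 0.0654 and LINC00116 at 0.0800, and genes near CD79B were HERC6 at 0.113 and RAI14 at 0.115. CD79A and CD79B were not each other's closest match, at a distance of 0.273, where CD79B ranked 1183 of 12359 genes by likeness to CD79A and CD79A ranked 352 by likeness to CD79B. TRAC and PAX5 were 0.493 apart, where PAX5 ranked 49 by likeness to TRAC and TRAC ranked 202 by likeness to PAX5. The distance is taken from the shNC mean, so it holds the size of the rise by which these genes were chosen. A rank also depends on how many genes have a rise of like size. PAX5 ranked 49 at 0.493 from TRAC, while CD79B ranked 1183 at 0.273 from CD79A. The ranks therefore cannot tell whether genes were regulated together, which was not tested. Over the 13 other ways of fitting, the fitted differences kept their direction for TRAC, CD79A and CD79B, and for PAX5 over the 12 that gave it a value.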

How the data were processed

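Poly(A)-selected RNA from 3 shGOT1 and 3 shNC samples was read from 1 table of 20263 genes, with columns matched to samples by the library names in the labels. The counts deposited by the authors are whole numbers without normalization. The deposited TPM values carry the authors' scaling for length and for a fixed total, and the deposited FPKM values, scaled for length and depth, were not used in any result. The submitters' processing notes name DESeq2, FastQC, StringTie and Trimmomatic. Counts from StringTie come from coverage and may differ from numbers of reads. The aligner, genome build and strand setting were not given in the sources used here, so overlapping or near-identical genes are uncertain. Coordinates are the table's, and those of all 5 genes equal GENCODE release 29 on GRCh38, as do those of 80.4% of the table's genes.

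The counts were fitted with edgeR 4.0.16 (R 4.3.3) by filterByExpr, TMM normalization and the quasi-likelihood test, 2-sided, with Benjamini-Hochberg adjustment over all 13735 genes tested at 0.05, without covariates. The SE is the size of the log2 fold change over the square root of F. Alternatives used DESeq2 1.42.0 and limma 3.58.1. Steps were tested on simulated data. Replicates of a group differed beyond sampling noise, so all were kept. The 5 genes and the lists were chosen with earlier results of these data known, and the lists do not hold the 5 genes. Named genes are the 5, their receptor partners, GOT1, up to 4 genes per list past the threshold with the largest changes whose higher group averaged 1 TPM or more, the nearest tested neighbours and the 3 most similar genes. Exceptions are stated, and a few named items are left out here.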

Additional observations from a re-analysis of the deposited data

How the results depend on the processing

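The fitted differences of TRAC, CD79A, CD79B and PAX5 kept their direction under every alternative that gave a value. Leaving out each library in turn gave log2 differences of 2.08 to 2.41 for TRAC, 0.59 to 0.76 for CD79A, 0.90 to 1.12 for CD79B and 1.61 to 1.94 for PAX5. With limma on log2(TPM + 1), PAX5 stood at 0.80 in place of 1.79, since its TPM lies near the pseudocount. PAX5 had no value under a filter of a mean of 1 TPM, and CD3E had none anywhere. Over the whole table the genes lower in shGOT1 numbered 1939 by limma on log2(TPM + 1) and 1931 on log2(TPM + 0.1), against 3126, and near the 5 genes 9 and 9, against 18. The cause was not tested. Leaving out each library gave 2402 to 2592 higher and 2706 to 2767 lower over the table, 13 to 18 and 17 to 19 in the lymphoid lists, and 13 to 20 and 13 to 17 near the 5 genes. Of 71 list genes tested, 49 had the same call in all 13 alternatives, 9 were called and lost it in some, and 0 were called in the opposite direction.

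The replicate numbers did not pair the samples, with correlations of deviations of 0.0282, 0.00893 and -0.000322. With the number as a block, 2497 genes were higher and 2725 lower, 16 and 16 in the lists, and 15 and 14 near the 5 genes. TRAC then stood at 2.29, CD79A at 0.69, CD79B at 0.98 and PAX5 at 1.76. Depth limits the genes at 0, above all CD3E. A group of 3 libraries is too small to look for an outlying one.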
